A study of Homo sapiens with 61 samples.

Results

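The genes described here are those whose response to vincristine differed when ATF2 was knocked down in human neurons. They were chosen in the count table of experiment 2 by 1 contrast over all expressed genes, the interaction. It is the vincristine effect in cells with a guide RNA (gRNA) against ATF2 minus the vincristine effect in cells with a scrambled Control gRNA. Of 58440 genes in the table, 20759 had enough counts to be tested, and the interaction was called for 4273 of them (20.6%). It was negative for 2158 genes (10.4%) and positive for 2115 (10.2%). Called means that the quasi-likelihood test of edgeR gave a p-value under 0.05 after Benjamini-Hochberg adjustment across the 20759 genes. Because the contrast chose the genes, their interaction values are a description and carry no further test.

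The cells were neurons labelled cortical, obtained by expressing the transcription factor NGN2 in WTC11, an established line of human induced pluripotent stem cells. All groups of experiment 2 carried the machinery for CRISPR interference, which blocks transcription at the site a guide RNA binds, and all received their gRNA from a lentivirus. On day 14 of differentiation they were given 5 nM vincristine or the vehicle DMSO (labelled untreated) for 16 hours. The 4 groups compared are Control gRNA untreated (5 libraries), Control gRNA with vincristine (5), ATF2 gRNA untreated (5) and ATF2 gRNA with vincristine (4, numbered 2 to 5), or 19 of the 61 libraries of the series. The number of guides per gene, and whether libraries came from separate differentiations, are not given in the sources used here. The p-values therefore measure the spread between these libraries, which may be technical. Total read counts lay between 38.9 M and 88.4 M per library in these groups.

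Vincristine binds tubulin and breaks down microtubules, and in neurons damage to axonal microtubules activates the kinases DLK and LZK, which act through the kinase JNK. JNK phosphorylates both JUN and ATF2, transcription factors of the basic leucine zipper family. ATF2 binds DNA as a pair with itself or with JUN, with a preference for the cyclic AMP response element (CRE), while JUN paired with FOS proteins binds the shorter AP-1 site.

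The targeted gene was measured first. ATF2 (ENSG00000115966.16, chromosome 2, 175072250 to 175168382), on build GRCh38, stood at 111, 114, 158, 130.3 and 129.8 CPM in the 5 untreated Control libraries. CPM (counts per 1e6 counts) is the read count over the library total, scaled by TMM factors. In the untreated ATF2 gRNA libraries it stood at 0.408, 0.877, 0.531, 0.707 and 0.106 CPM, and with vincristine at 0.391, 0.282, 0.623 and 0.997 CPM. Every ATF2 gRNA library was far below every Control library, and the untreated log2 difference was -7.88 (SE 0.20). In Control cells ATF2 mRNA stood at 142 ± 6.14 CPM with vincristine (SD, n = 5), against 129 ± 18.6 untreated, and this difference was not called.

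Vincristine changed 7318 genes in Control gRNA (35.3%), 3551 upward (17.1%) and 3767 downward (18.1%). In ATF2 gRNA it changed 1267 (6.1%), 390 upward (1.88%) and 877 downward (4.22%). Of the 3551 genes induced in Control, the effect was called smaller in ATF2 gRNA for 1878 (52.9%), the difference was not called for 1672, and it was called larger for 1. Over those 3551 genes the median log2 change with vincristine was 0.50 in Control and 0.05 in ATF2 gRNA, where 262 of them were called higher. Over all genes tested both medians were near 0, at 0.03 and -0.02. The 1672 genes whose difference was not called had a median of 0.38 in Control and 0.11 in ATF2 gRNA, so a missing call is not a response of equal size.

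**Figure D1:**
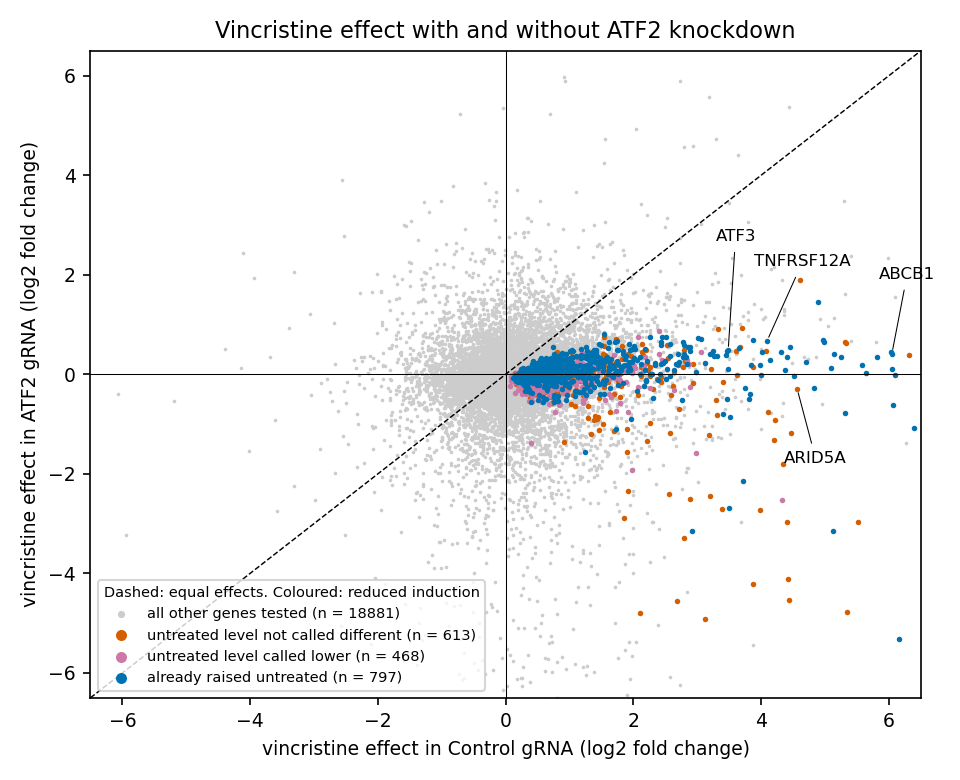
Log2 vincristine effect in Control gRNA (horizontal axis) against that in ATF2 gRNA (vertical axis) for each gene tested. Coloured points are the 1878 genes induced in Control with a smaller effect in ATF2 gRNA, split by their untreated level. Most lie near the horizontal axis, and all lie below the dashed line of equal effects because of how they were chosen (14 genes fall outside the plotted range).

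These 1878 genes were separated by their level before any drug was given. In 613 genes the untreated ATF2 gRNA level was not called different from untreated Control. These are said below to have an equal start, by the call alone, since a missing call does not show equality. In 468 it was called lower and in 797 it was called higher, so that these last genes were already raised. Among all genes tested, 19.7% were called higher and 20.2% lower in untreated ATF2 gRNA. The untreated difference and the interaction use the same untreated libraries, so an untreated library with an aberrant value moves them in opposite directions. Genes just inside the limit of the already raised group were LGI1, with an untreated log2 difference of 0.27, and IRAK4, with 0.26. Just outside were ZDBF2 with 0.23 and ADAMTS1 with 0.53.

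The 3 groups had near-equal responses and unequal starting points. Median log2 effects in Control were 0.57 in the equal-start group, 0.52 in the lower group and 0.66 in the already raised group. Median effects in ATF2 gRNA were -0.04, -0.06 and 0.03, and the median interactions were -0.60, -0.60 and -0.62. Median untreated differences were 0.06, -0.54 and 0.54. Under vincristine the ATF2 gRNA cells therefore ended at different places, with median log2 differences from treated Control of -0.56, -1.22 and -0.08. Of the 613 genes, 582 were called below treated Control and 31 were not called different, while all 468 of the lower group were called below. Among all genes tested, 23% were called below treated Control and 19.4% above. The treated difference is the untreated difference plus the interaction, so the choice of these genes fixes its direction and nothing is read from the counts. A few genes still responded in ATF2 gRNA: 19 of the 613, 13 of the 468 and 102 of the 797 were called higher with vincristine there.

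**Figure D2:**
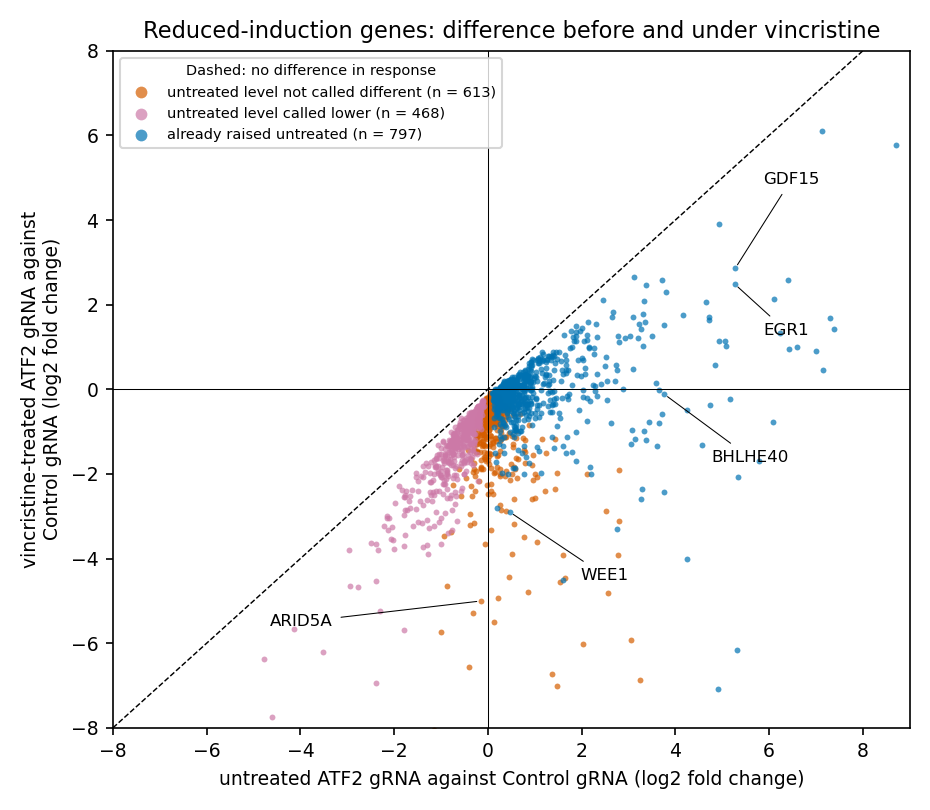
Log2 difference between ATF2 gRNA and Control gRNA without drug (horizontal axis) and under vincristine (vertical axis) for the 1878 genes. The vertical drop from the dashed line is the interaction, and the already raised genes spread around 0 on the vertical axis while the other groups lie below it.

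Genes whose induction failed from an equal start were led by ARID5A, GADD45B and CDC42EP1. ARID5A (ENSG00000196843.15, chromosome 2, 96536743 to 96552638) codes for an RNA-binding protein that stabilises mRNAs of inflammation. In Control it stood at 1.68, 1.96, 2.09, 1.73 and 1.61 CPM untreated and at 39.8, 49.3, 43.5, 45.1 and 37.2 CPM with vincristine. The ATF2 gRNA libraries were at 1.27, 1.75, 1.98, 1.35 and 1.84 CPM untreated and at 0.978, 1.39, 1.71 and 1.29 CPM with vincristine. The treated Control libraries alone were high, and the other 3 groups overlapped. The log2 effect was 4.56 (SE 0.19) in Control and -0.29 (SE 0.22) in ATF2 gRNA, and the interaction was -4.85 (SE 0.29).

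GADD45B (ENSG00000099860.8, chromosome 19, 2476122 to 2478259), a stress protein that acts on kinases upstream of JNK and p38, was at 0.498, 0.450, 0.636, 1.06 and 0.290 CPM in untreated Control and 8.65, 8.88, 7.95, 8.80 and 8.74 CPM with vincristine. In ATF2 gRNA it was at 1.32, 0.324, 0.622, 1.19 and 0.866 CPM untreated and 0.782, 1.39, 0.508 and 1.11 CPM with vincristine. Treated Control was again above every other library, and the interaction was -3.73 (SE 0.45). CDC42EP1 (ENSG00000128283.6, chromosome 22, 37560447 to 37569405), an effector of the small GTPase CDC42, rose from 1.55 ± 0.526 to 26.0 ± 2.69 CPM in Control (SD, n = 5). It stood at 1.47 ± 0.528 CPM (n = 5) and 2.05 ± 0.599 CPM (n = 4) in ATF2 gRNA without and with vincristine, where its effect was not called. F2RL2, a receptor activated by proteases, rose from 1.53 ± 0.455 to 10.6 ± 1.24 CPM in Control and stood at 2.40 ± 0.813 CPM in treated ATF2 gRNA. FREM3, a protein of the extracellular matrix, rose from 1.48 ± 0.302 to 8.03 ± 0.851 CPM in Control and was at 1.04 ± 0.653 CPM in treated ATF2 gRNA. FCRLA, an Fc receptor-like protein known from B cells, rose from 1.02 ± 0.635 to 6.47 ± 0.802 CPM in Control and was at 1.61 ± 0.322 CPM in treated ATF2 gRNA.

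The naming rule also took a pair of non-coding RNAs from this group. AC007750.1, which lies antisense to FAP, rose from 2.53 ± 0.740 to 19.6 ± 3.06 CPM in Control and stood at 2.73 ± 0.681 CPM in treated ATF2 gRNA. RN7SL2, an RNA of the signal recognition particle with near-identical copies in the genome, was uneven among libraries. In treated Control it stood at 5.91, 18.7, 51.4, 5.66 and 8.47 CPM, with library 3 far above the rest, and reads may be split between copies. Whether counting used the strand is not stated, so reads of overlapping genes on opposite strands may be shared. F2RL2 lies in IQGAP2, whose own interaction was -1.95, SFRP4 (below) overlaps EPDR1 with -1.36, and ABCB1 (below) overlaps RUNDC3B with -1.01.

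Genes that started lower in ATF2 gRNA and also failed to rise included proteins of the cell surface and matrix. THBS2 (ENSG00000186340.14, chromosome 6, 169215780 to 169254044) codes for thrombospondin 2, a matrix glycoprotein. In Control it stood at 9.47, 11.9, 9.20, 9.59 and 9.28 CPM untreated and 60.5, 66.7, 59.2, 60.3 and 59.0 CPM with vincristine. ATF2 gRNA libraries had 2.34, 1.52, 1.21, 2.24 and 2.72 CPM untreated and 1.67, 1.08, 1.15 and 2.54 CPM with vincristine. All ATF2 gRNA libraries were below all untreated Control libraries, and the interaction was -2.94 (SE 0.24). CEMIP, which degrades hyaluronan, rose from 1.92 ± 0.570 to 14.1 ± 0.904 CPM in Control and stood at 0.959 ± 0.348 and 1.11 ± 0.547 CPM in ATF2 gRNA without and with drug. PIRT, a membrane regulator of sensory channels, rose from 2.73 ± 0.432 to 10.7 ± 0.495 CPM in Control. Its treated ATF2 gRNA libraries were at 0, 0.282, 0 and 0.544 CPM. SFRP4, a secreted Wnt antagonist, rose from 2.13 ± 0.292 to 15.8 ± 2.01 CPM in Control and was at 0.0828 ± 0.0676 and 0.0706 ± 0.0928 CPM in ATF2 gRNA. At so low a level its effect there had an SE of 0.95 on the log2 scale, and its interaction (adjusted p = 0.0289) lost its call in 6 alternatives, with adjusted p of 0.0571 to 0.0981 there. They were no filter, and leaving out untreated ATF2 gRNA library 2, 4 or 5 or ATF2 gRNA vincristine library 4 or 5.

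JUN itself belongs to this lower group. JUN (ENSG00000177606.6, chromosome 1, 58780788 to 58784327) stood at 83.5, 93.9, 85.8, 97.8 and 81.7 CPM in untreated Control and at 226, 243, 240.3, 255 and 223 CPM with vincristine. With ATF2 knocked down it was at 19.6, 22.1, 18.2, 22.5 and 22.5 CPM untreated and at 18.9, 22.2, 17.1 and 23.8 CPM with vincristine. Every ATF2 gRNA library was below every untreated Control library, and the treated and untreated ATF2 gRNA libraries overlapped. The untreated log2 difference was -2.08 (SE 0.10) and the interaction -1.46 (SE 0.15). In cells with a gRNA against JUN, JUN was at 2.87 ± 0.447 CPM untreated and 6.43 ± 1.31 CPM with vincristine (n = 5 each).

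Promoter sequence was examined because the groups differ in their untreated level. The palindromic CRE, TGACGTCA, was searched in RefSeq promoters (GRCh38.p14) from 250 bases before to 50 bases after each gene start. The AP-1 site was searched as TGACTCA and TGAGTCA, which are each other's reverse complement, and 6 promoters held both motifs. A promoter was found for 11835 of 14718 protein-coding genes tested (80.4%). The CRE stood in 372 of them (3.14%) and the AP-1 site in 351 (2.97%). In genes that started lower and failed to rise, the CRE stood in 30 of 356 promoters (8.43%) and the AP-1 site in 12 (3.37%). In genes that failed from an equal start, the CRE stood in 24 of 467 (5.14%) and the AP-1 site in 21 (4.50%). In already raised genes, the CRE stood in 24 of 599 (4.01%) and the AP-1 site in 29 (4.84%). Genes with a negative interaction but no called induction in Control held the CRE in 8 of 164 (4.88%) and the AP-1 site in 11 (6.71%). Genes that fell in Control and fell less in ATF2 gRNA are described below. Of these, the already lowered ones held the CRE in 23 of 751 (3.06%) and the AP-1 site in 16 (2.13%). With an equal start these were 9 (1.97%) and 7 (1.53%) of 457. With a higher start they were 5 (1.49%) and 5 (1.49%) of 336. Genes with a positive interaction and no called fall held them in 3 (3.57%) and 0 of 84. Promoters of JUN, ARID5A, GADD45B, CDC42EP1, THBS2, ABCB1, BHLHE40 and FAM129A held neither motif. These shares are descriptions of groups chosen by their expression, and a match is not a bound site. Variants of these letters, and sequence outside the window, were not searched, so a missing match is not a missing site. Promoters matched for 80.2% to 82.5% of the protein-coding genes of each reduced-induction group, and for 77.0% of those with no called induction. In the groups with a smaller fall they matched for 78.5% to 82.1%, and for 77.8% with no called fall.

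Promoters of 8 genes with the CRE are shown with their flanks, since the motif is the element ATF2 is known to prefer and they come from the 3 groups. Capitals mark the CRE, sequences run 5′ to 3′ on the strand of the gene, and all bases lie before the gene start. Within each group they were taken from the most negative interactions among genes with the CRE before the start that average at least 1 log2 CPM. The first 4 genes started lower, the next 2 started equal, and the last 2 were already raised.
PDLIM3 (chr4:185535523-185535580, minus strand): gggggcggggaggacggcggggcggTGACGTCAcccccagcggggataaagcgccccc
LPP (chr3:188153784-188153841, plus strand): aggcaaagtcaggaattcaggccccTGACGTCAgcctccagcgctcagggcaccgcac
ZNF143 (chr11:9460823-9460880, plus strand): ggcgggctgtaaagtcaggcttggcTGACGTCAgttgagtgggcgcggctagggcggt
MCAM (chr11:119317131-119317187, minus strand): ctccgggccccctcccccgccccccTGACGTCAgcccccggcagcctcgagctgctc
EPHA2 (chr1:16156088-16156145, minus strand): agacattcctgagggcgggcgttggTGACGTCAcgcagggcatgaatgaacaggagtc
AVPI1 (chr10:97687451-97687491, minus strand): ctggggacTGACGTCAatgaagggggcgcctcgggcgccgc
HHIP (chr4:144646056-144646113, plus strand): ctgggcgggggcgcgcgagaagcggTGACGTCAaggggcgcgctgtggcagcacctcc
FSTL4 (chr5:133612542-133612594, minus strand): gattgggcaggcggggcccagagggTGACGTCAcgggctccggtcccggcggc

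The CRE starts 28 to 242 bases before the gene start in these windows, and flanks of up to 25 bases are printed on each side. PDLIM3, an actin-associated protein, had a log2 effect of 2.84 in Control and 0.30 in ATF2 gRNA. LPP, a protein of focal adhesions, had 1.80 and -0.57, and the adhesion molecule MCAM had 1.48 and -0.19. Their untreated log2 differences were -0.77, -1.31 and -1.77. ZNF143 had 1.97 and 0.02, with a smaller untreated difference of -0.22. EPHA2, a receptor tyrosine kinase, had 2.15 in Control and 0.38 in ATF2 gRNA, with an untreated difference of -0.28. HHIP, an inhibitor of hedgehog signalling, had 2.42 and 0.58 and started 1.68 higher. The 30 lower-start genes with the CRE also include JUND, DUSP1 and DUSP8. Their median untreated difference was -0.66 against -0.51 in the 326 without it, and their median effects in ATF2 gRNA were -0.04 and -0.05.

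Already raised genes fell short, matched or passed treated Control. Of the 797, 210 ended called below treated Control, 413 were not called different and 174 were called above. Their median untreated differences were 0.40, 0.47 and 1.30 in that order, against median Control effects of 1.00, 0.52 and 0.73. The untreated difference was at least as large as the whole Control effect for 319 genes. Its median was 86.8% of the Control effect on the log2 scale, with quartiles of 56.9% and 124%. These ratios rest on the same untreated Control libraries above and below the line, and describe only genes picked for both changes.

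Among genes that came near the treated Control level without drug was TNFRSF12A. TNFRSF12A (ENSG00000006327.13, chromosome 16, 3018445 to 3022383) codes for Fn14, the receptor of the cytokine TWEAK. In Control it stood at 2.53, 1.85, 1.78, 3.01 and 1.76 CPM untreated and 34.8, 39.4, 36.3, 37.2 and 37.3 CPM with vincristine. In ATF2 gRNA it stood at 27.6, 25.7, 25.1, 24.8 and 26.7 CPM untreated and 37.8, 43.2, 44.2 and 39.8 CPM with vincristine. Untreated ATF2 gRNA was thus above untreated Control and below treated Control in every library. With vincristine it overlapped treated Control, and its smaller rise in ATF2 gRNA was called, with a log2 effect of 0.67 (SE 0.10) against 4.09 (SE 0.12).

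BHLHE40 (ENSG00000134107.4, chromosome 3, 4979116 to 4985323), a transcriptional repressor of the circadian clock, stood at 1.58, 0.185, 0.784, 0.325 and 0.689 CPM in untreated Control and 14.5, 15.5, 15.0, 14.6 and 13.3 CPM with vincristine. The ATF2 gRNA libraries were at 8.14, 10.3, 9.22, 10.2 and 11.8 CPM untreated and 9.58, 15.9, 13.7 and 14.8 CPM with vincristine. The treated groups overlapped, and their log2 difference of -0.12 was not called. FAM129A (ENSG00000135842.16, chromosome 1, 184790724 to 184974550), now named NIBAN1 and known as a stress-induced gene, stood at 1.25, 2.38, 0.695, 1.08 and 1.11 CPM in untreated Control and 19.4, 18.3, 19.0, 16.5 and 16.5 CPM with vincristine. ATF2 gRNA libraries had 16.0, 16.2, 15.6, 14.7 and 16.3 CPM untreated and 13.0, 19.4, 20.1 and 18.8 CPM with vincristine. Its treated levels overlapped too, and the effect in ATF2 gRNA, 0.18, was not called.

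Other already raised genes ended below treated Control, from untreated log2 differences of 0.47 (WEE1) to 3.28 (ABCB1). WEE1 (ENSG00000166483.10, chromosome 11, 9573681 to 9593457), the kinase that holds CDK1 inactive, rose in Control from 14.4, 9.55, 12.7, 12.2 and 13.4 CPM to 148, 139.6, 141, 142 and 125 CPM. With ATF2 knocked down it was at 17.6, 17.4, 16.3, 17.6 and 17.4 CPM untreated and 15.2, 19.2, 20.4 and 19.7 CPM with vincristine. Its untreated difference was 0.47 (SE 0.12), against a Control effect of 3.48 (SE 0.12). ABCB1 (ENSG00000085563.14, chromosome 7, 87503633 to 87713323), the efflux pump P-glycoprotein that carries vincristine among its substrates, rose in Control from 0.478, 0.661, 0.695, 0.909 and 0.888 CPM to 49.8, 49.7, 49.2, 46.9 and 45.8 CPM. In ATF2 gRNA it stood at 7.44, 6.97, 6.68, 6.96 and 7.48 CPM untreated and 14.1, 10.1, 5.38 and 8.32 CPM with vincristine. Every treated ATF2 gRNA library was below every treated Control library, and the interaction was -5.63 (SE 0.33). ADCY8, a calcium-stimulated adenylyl cyclase, rose from 3.79 ± 0.548 to 55.5 ± 2.82 CPM in Control and from 12.0 ± 0.447 to 19.5 ± 4.94 CPM in ATF2 gRNA. C11orf96 rose from 3.21 ± 0.421 to 40.1 ± 2.09 CPM in Control and from 7.06 ± 0.792 to 10.2 ± 1.40 CPM in ATF2 gRNA.

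The non-coding RNA KC877982.1 (ENSG00000269993.1, chromosome X, 151182386 to 151182855) went past treated Control. It rose from 6.03 ± 1.37 to 64.8 ± 3.81 CPM in Control, while ATF2 gRNA already stood at 155 ± 10.3 CPM and reached 203 ± 6.75 CPM with vincristine. All untreated ATF2 gRNA libraries were above all treated Control libraries.

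**Figure D3:**
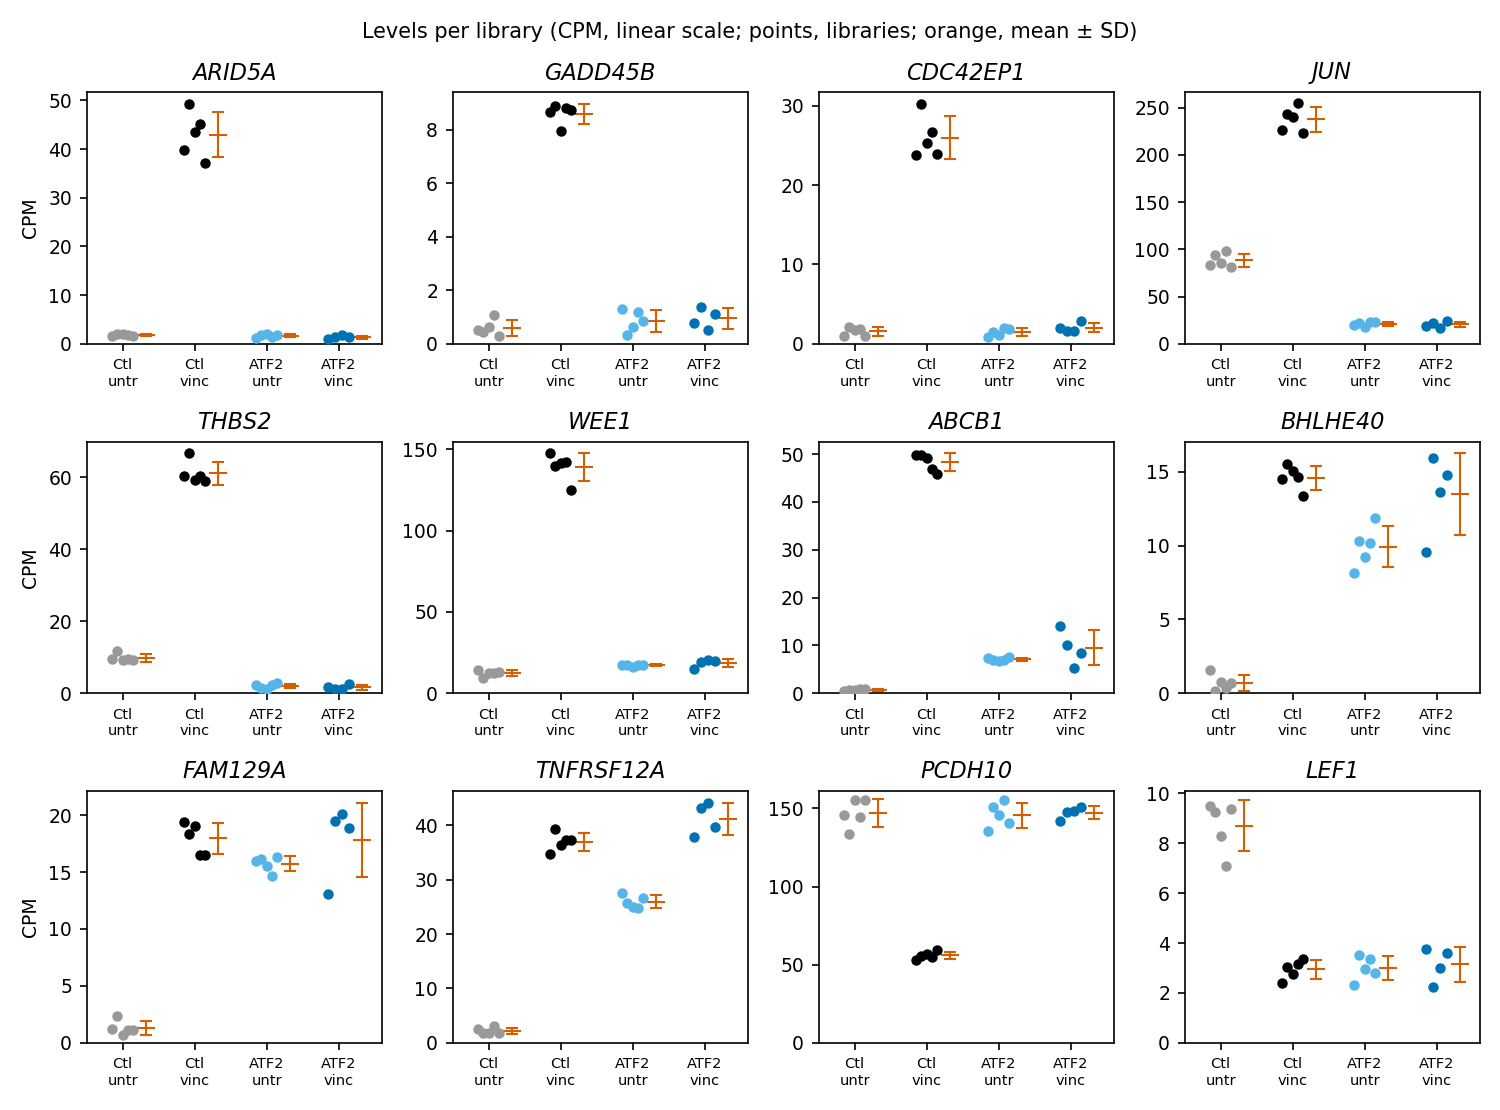
CPM of 12 genes (vertical axes, linear from 0) in each library of untreated and vincristine-treated Control gRNA and ATF2 gRNA (horizontal axis). Points are libraries and orange marks are the mean and SD; ARID5A, GADD45B and CDC42EP1 are high in treated Control alone, BHLHE40, FAM129A and TNFRSF12A are high without drug in ATF2 gRNA, and PCDH10 falls in treated Control alone.

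The loss of response extended to genes that vincristine lowered. Of 3767 genes lowered in Control, the fall was lessened in ATF2 gRNA for 1986. Their untreated ATF2 gRNA level was not called different for 603, already lowered for 932 and called higher for 451. Median log2 effects in Control were -0.34, -0.39 and -0.45, and in ATF2 gRNA -0.01, -0.07 and 0.00. In ATF2 gRNA 198 of the 932 already lowered genes were still called lower with vincristine. Under vincristine 246 of the 932 ended called below treated Control, 489 not called different and 197 above.

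PCDH10, a protocadherin of cell adhesion, is an example with an equal start. It stood at 146, 134, 156, 145 and 155 CPM in untreated Control and 53.0, 55.9, 56.7, 55.2 and 59.5 CPM with vincristine. The ATF2 gRNA libraries were at 136, 151, 145, 156 and 140.5 CPM untreated and 142, 147, 149 and 151 CPM with vincristine. The ATF2 gRNA libraries with and without drug overlapped, and the interaction was 1.41 (SE 0.06). VWC2L fell in both, from 44.9 ± 2.62 to 11.8 ± 0.824 CPM in Control and from 40.7 ± 1.11 to 28.6 ± 4.17 CPM in ATF2 gRNA. SH2D5, CCDC85A and LMO1 had interactions of 1.81, 1.48 and 1.36, and none of them had a called effect in ATF2 gRNA.

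LEF1, a transcription factor of the Wnt pathway, was already lowered. It stood at 9.49, 9.23, 8.30, 7.08 and 9.39 CPM in untreated Control and 2.41, 3.03, 2.75, 3.17 and 3.38 CPM with vincristine, and at 2.31, 3.53, 2.96, 3.34 and 2.81 CPM in untreated ATF2 gRNA. With vincristine the ATF2 gRNA libraries were at 3.76, 2.23, 3.00 and 3.58 CPM, overlapping treated Control. FAM84A had an interaction of 1.15 and still fell in ATF2 gRNA, by a log2 effect of -0.24. The antisense RNA AC148477.2 had an interaction of 1.79, which lost its call without ATF2 gRNA vincristine library 4 (value 1.09, adjusted p = 0.114) and under limma voom (0.64, adjusted p = 0.371).

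A smaller set had a called interaction without the matching Control effect. Of the 280 genes with a negative interaction and no called induction in Control, 117 were called lower with vincristine in ATF2 gRNA. CDH23, a cadherin known from hair cells, stood at 3.54 ± 0.258 and 5.24 ± 1.16 CPM in Control and fell from 1.49 ± 0.429 to 0.780 ± 0.545 CPM in ATF2 gRNA. Its log2 effect in Control, 0.56, narrowly missed a call in the edgeR test (adjusted p = 0.0501). Every treated Control library was above every untreated one for CDH23. TVP23A fell from 1.63 ± 0.236 to 0.865 ± 0.235 CPM in ATF2 gRNA and stood at 2.74 ± 0.400 and 3.54 ± 0.761 CPM in Control. Of the 129 with a positive interaction and no called fall, 41 were called higher in ATF2 gRNA. The rule named the pseudogene TMSB4XP4, which shares sequence with its parent gene, and the RNA AL954650.1, with interactions of 1.22 and 1.05. AL954650.1 narrowly missed a called fall in Control, at -0.69 (adjusted p = 0.0536 in the edgeR test). The interaction call of TMSB4XP4 was lost without untreated Control library 2, Control vincristine library 4 or ATF2 gRNA vincristine library 2, and that of AL954650.1 in 9 such alternatives and under limma voom.

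Counts in the gene lists below stand against these shares of all genes tested. With vincristine 17.1% rose and 18.1% fell in Control, and 1.88% rose and 4.22% fell in ATF2 gRNA. Untreated, 19.7% were higher and 20.2% lower in ATF2 gRNA, and the interaction was negative for 10.4% and positive for 10.2%. Among AP-1 and ATF factors, 13 of 17 tested genes rose with vincristine in Control and 6 in ATF2 gRNA. The interaction was negative for 8, with a list median of -0.62 against -0.04 over all genes. ATF3, a stress-induced repressor and partner of JUN, stood at 20.6, 22.6, 22.1, 21.9 and 23.6 CPM in untreated Control and 259.8, 255, 251, 244 and 229.6 CPM with vincristine. ATF2 gRNA libraries had 22.0, 28.1, 24.7, 27.3 and 24.9 CPM untreated and 40.1, 34.0, 33.8 and 33.9 CPM with vincristine. It kept a called effect of 0.48 (SE 0.07), against 3.48 (SE 0.07) in Control. FOSL2, a partner of JUN proteins, had log2 effects of 3.24 and 0.47. CREB5, the close relative of ATF2, had 2.44 and 0.29 and started -2.38 from Control. ATF7, the other close relative, did not respond to a called extent in either line, at -0.03 and -0.15. FOS had 1.46 and 0.84, MAFF 0.76 and 0.89, and JDP2 1.07 and 0.78. Those 3 rose in both lines and their interactions were not called. JUNB was higher in untreated ATF2 gRNA, by 1.40, with no called vincristine effect in either line.

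Early activity genes, which neurons switch on within minutes of calcium entry, were largely raised before the drug. Of 15 tested, 9 were higher and 2 lower in untreated ATF2 gRNA, and the median untreated difference was 1.66 against 0.02 over all genes. The interaction was negative for 7 and positive for 4. EGR1, a zinc finger transcription factor, stood at 16.3, 11.4, 12.9, 13.3 and 15.3 CPM in untreated Control and 126, 142, 125, 126 and 119 CPM with vincristine. With ATF2 knocked down it was at 564, 535, 529, 522 and 528 CPM untreated and 673, 722, 706 and 751 CPM with vincristine, above all Control libraries. ARC, a synaptic plasticity protein, had an untreated difference of 3.31 and effects of 2.70 in Control and 0.41 in ATF2 gRNA. NR4A3 instead fell in Control, by -1.36, and was at -0.13 in ATF2 gRNA. MYC rose by 0.64 in Control from an equal start and was at 0.02 in ATF2 gRNA.

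MAP kinase phosphatases, which switch off ERK, JNK and p38, moved apart. In Control 6 of 10 rose and 3 fell, and in ATF2 gRNA 1 rose and 0 fell. Untreated, 7 of the 10 were higher and 3 lower in ATF2 gRNA, with a list median of 0.51. The interaction was negative for 5 and positive for 2. DUSP8 and DUSP16, which act on JNK, had log2 effects of 1.12 and 2.03 in Control and 0.25 and 0.12 in ATF2 gRNA. Untreated they stood at -2.16 and -2.77 relative to Control. DUSP6, which acts on ERK, fell in Control by -0.63, was higher in untreated ATF2 gRNA by 1.52 and had no called effect there.

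The BH3-only genes, whose proteins start apoptosis by releasing BAX and BAK, include members of each group. Of the 19 BCL2 family and death genes tested, 9 rose in Control and 5 in ATF2 gRNA, and the interaction was negative for 7 and positive for 4. BCL2L11 (BIM) had an equal start: 18.8, 19.1, 16.0, 16.9 and 18.1 CPM in untreated Control and 52.6, 53.3, 50.8, 51.9 and 50.4 CPM with vincristine, and 16.6, 21.4, 20.3, 18.6 and 18.8 CPM in untreated ATF2 gRNA. With vincristine the ATF2 gRNA libraries were at 20.5, 18.1, 23.1 and 26.0 CPM, below every treated Control library. HRK started lower, at 42.3 ± 2.10 CPM against 62.8 ± 4.26 in Control, and reached 53.8 ± 3.36 CPM with vincristine against 284 ± 4.76. BBC3 (PUMA) started higher, at 15.5 ± 1.03 CPM against 8.10 ± 0.298, and reached 24.3 ± 1.34 CPM against 43.7 ± 4.88. PMAIP1 (NOXA) had effects of 1.38 and 0.48, and BMF 0.81 and -0.42. The effects of HRK, BBC3 and PMAIP1 in ATF2 gRNA were called, and those of BCL2L11 and BMF were not. TNFRSF10B, the death receptor DR5, was at 45.5 ± 2.35 CPM in untreated ATF2 gRNA and 44.2 ± 2.27 CPM in treated Control, from 15.4 ± 0.977 untreated. The protective genes BCL2L1 and MCL1 fell in Control, by -0.45 and -0.16, with no called effect in ATF2 gRNA.

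In the integrated stress response, the program run by ATF4 when translation is slowed, induction was reduced but not lost. Of 16 genes tested, 14 rose in Control and 14 rose in ATF2 gRNA, with list medians of 1.45 and 0.49. The interaction was negative for 10, of which 2 had an equal start and 8 were already raised, and positive for 2. Untreated, 9 of the 16 were higher in ATF2 gRNA and 2 lower. Under vincristine the list median of the difference between ATF2 gRNA and Control was -0.03. DDIT3 (CHOP) stood at 19.5 ± 0.425 and 145 ± 4.37 CPM in Control and at 113 ± 10.1 and 165 ± 4.72 CPM in ATF2 gRNA. TRIB3 had effects of 2.45 and 0.75 and an untreated difference of 1.80. SLC7A11, the cystine transporter, had effects of 1.73 and 0.70 from an equal start. CHAC1, PSAT1 and PHGDH had effects of 0.56, 0.42 and 0.38 in Control and 0.55, 0.44 and 0.43 in ATF2 gRNA. Their interactions were -0.01 (SE 0.12), 0.02 (SE 0.08) and 0.06 (SE 0.08) and were not called. Of 10 amino acid transporters, 10 rose in Control and 7 in ATF2 gRNA, with list medians of 0.63 and 0.41, and the interaction was negative for 5 and not called for 5. Among the 5 with a negative interaction, 1 had an equal start and 4 were already raised.

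Of 12 p53 targets, 6 rose and 3 fell in Control, and 1 rose and 1 fell in ATF2 gRNA. Untreated, 7 were higher and 1 lower in ATF2 gRNA. CDKN1A, the cell cycle inhibitor p21, stood at 16.4 ± 3.25 and 60.0 ± 1.60 CPM in Control and at 68.1 ± 3.30 and 77.2 ± 3.80 CPM in ATF2 gRNA. GDF15, a stress-secreted hormone, started 5.28 above Control on the log2 scale. MDM2 and BAX had no called effect in either line. Of 21 axon injury and regeneration genes, 9 rose and 5 fell in Control, and 2 rose and 4 fell in ATF2 gRNA. The list median in Control was 0.04. Untreated, 6 were higher and 11 lower in ATF2 gRNA, and the interaction was negative for 9 and positive for 3. STMN4, a tubulin-binding stathmin, stood at 368, 386, 375, 411 and 408 CPM in untreated Control and 879.8, 941, 924, 898 and 909.8 CPM with vincristine. In ATF2 gRNA it stood at 13.5, 15.4, 12.9, 15.6 and 13.8 CPM untreated and 14.9, 8.83, 9.48 and 11.0 CPM with vincristine, where the fall was called. UNC5B, a netrin receptor, started 2.04 higher and had effects of 2.79 in Control and 0.58 in ATF2 gRNA. NMNAT2, which protects axons by making NAD, had effects of 0.21 and -0.05 and started at -0.96.

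Tubulin genes fell with vincristine in both lines. Cells are known to degrade tubulin mRNA when free tubulin accumulates, as it does when microtubules come apart. Of 13 genes in the list, 11 fell in Control and 10 fell in ATF2 gRNA, with list medians of -1.32 and -1.37. In untreated ATF2 gRNA 11 of the 13 were already lower and 2 higher, with a median of -0.71. TUBA1A stood at 6774, 7109.8, 6871, 6902 and 7178 CPM in untreated Control and 2058, 2077, 1959, 2021 and 2051 CPM with vincristine. The ATF2 gRNA libraries were at 3103, 2822, 2898, 2969 and 2931 CPM untreated and 677, 583, 612 and 638 CPM with vincristine. Treated libraries were below untreated ones in both lines, and the fall was larger in ATF2 gRNA, with an interaction of -0.45 (SE 0.07). The interaction was negative for 5 tubulin genes and positive for 2, and only TUBB6 rose in Control (0.94).

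Kinases and scaffolds of the DLK and JNK pathway moved in both directions. Of 17 tested, 4 rose and 7 fell in Control, 2 fell in ATF2 gRNA, and the list medians were -0.05 and -0.03. In untreated ATF2 gRNA 8 of them were called lower and 1 higher. The interaction was negative for 3 and positive for 2, where 10.4% and 10.2% of all genes tested had such calls. Nothing about the pathway is read from these interaction counts. MAP3K12 (DLK) was lower in untreated ATF2 gRNA, by -0.43, and MAP3K13 (LZK) rose in Control by 0.53 and was at -0.05 in ATF2 gRNA. The scaffold gene MAPK8IP1 (JIP1) had 0.82 and 0.07.

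Genes of cholesterol synthesis and ER chaperones had smaller falls in ATF2 gRNA. In cholesterol synthesis 13 of 14 genes fell in Control and 8 fell in ATF2 gRNA, with list medians of -1.02 and -0.23. The interaction was positive for 13, and all 13 were also lower in untreated ATF2 gRNA (list median -0.48). Of 12 ER chaperones and related genes, 10 fell in Control and 1 in ATF2 gRNA, and none was lower in untreated ATF2 gRNA. CALR, a calcium-binding chaperone, had effects of -0.85 and -0.12, and HSPA5 (BiP) -0.63 and -0.19. HERPUD1 and XBP1, which rose in Control by 0.56 and 0.92, rose by 0.33 and 0.22 in ATF2 gRNA.

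**Figure D4:**
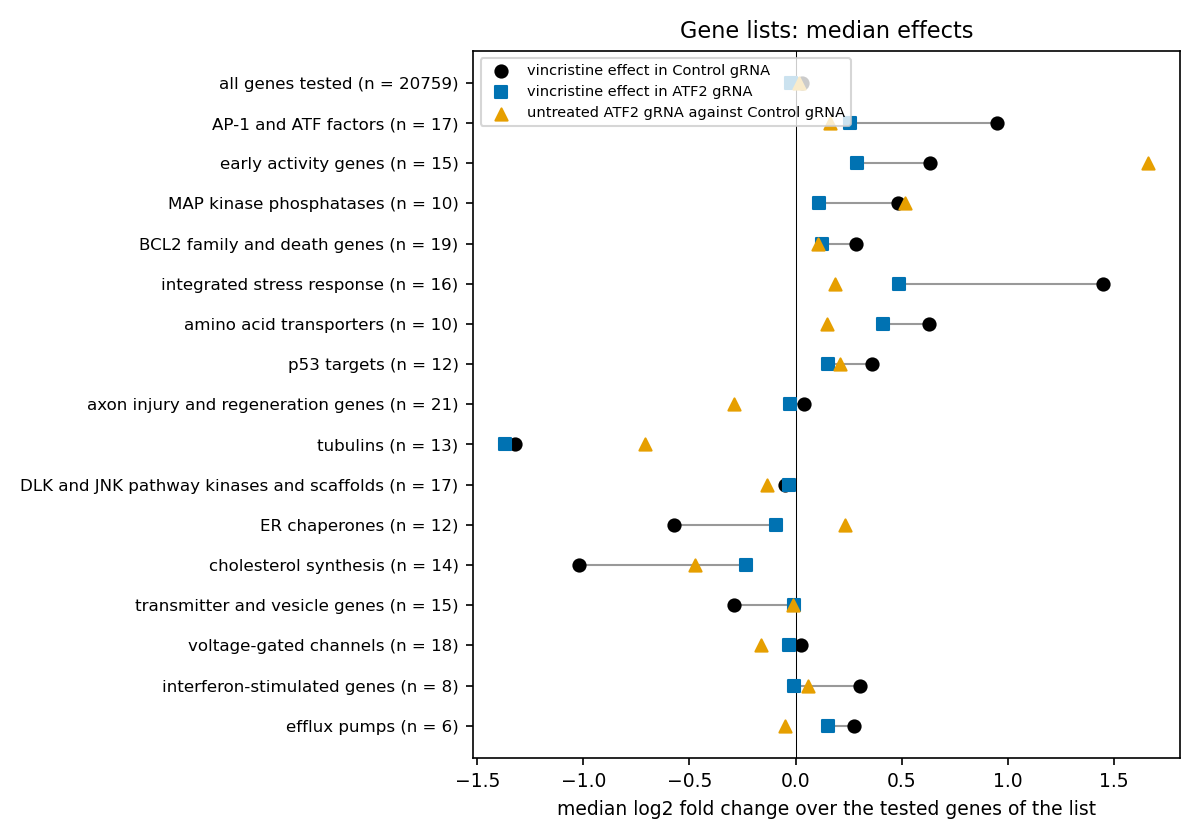
Median log2 fold change (horizontal axis) of each gene list (vertical axis, with the number of genes tested) for the vincristine effect in Control gRNA (circles) and ATF2 gRNA (squares) and for untreated ATF2 gRNA against Control gRNA (triangles). Tubulins have near-equal medians in both lines (-1.32 and -1.37), while cholesterol synthesis moves from -1.02 to -0.23 and the integrated stress response from 1.45 to 0.49.

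Transmitter and vesicle genes gave 4 higher and 7 lower of 15 in Control, with list medians of -0.29 there and -0.01 in ATF2 gRNA. Voltage-gated channel genes gave 3 lower of 18 in ATF2 gRNA, against 4 higher and 6 lower in Control. KCNA1, a potassium channel, stood at 0.0415, 0.317, 0.0148, 0 and 0.0362 CPM in untreated Control and 3.52, 3.81, 3.34, 2.54 and 4.10 CPM with vincristine. Its untreated ATF2 gRNA libraries were at 1.70, 2.40, 2.53, 2.14 and 4.14 CPM, and its effect in ATF2 gRNA was 0.19 (SE 0.37). Of 8 interferon-stimulated genes, ISG15 and IRF1 rose in Control, by 1.60 and 3.05, and only IRF1 rose in ATF2 gRNA, by 0.70. Among 6 efflux pumps, ABCB1 was the only one with a called interaction.

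Experiment 1, which shares no library with experiment 2, gave independent values for the same genes. Its wild type (WT) neurons and its neurons lacking both DLK and LZK (double KO) were each measured untreated and with vincristine, in 4 libraries per group. Of 18235 genes tested there, 15.7% were called higher with vincristine in WT and 10.2% had an effect called lower in double KO than in WT. Among genes whose induction failed from an equal start, 374 of 582 tested were called higher in WT (64.3%) and 245 had a lower effect in double KO (42.1%). For those that started lower the counts were 334 and 275 of 463 (72.1% and 59.4%). For the already raised genes they were 488 and 362 of 754 (64.7% and 48.0%). Genes induced in Control whose interaction was not called gave 620 and 378 of 1498 (41.4% and 25.2%). Seen from experiment 1, the 1878 genes hold 1196 of the 2753 genes called higher in WT and tested in both (43.4%), and 882 of the 1803 with a lower effect in double KO (48.9%). They make up 1799 of the 16927 genes tested in both experiments. All genes induced in Control, of which 3298 were tested in both, hold 1817 of the 2753 and 1260 of the 1803. The groups also differ in effect size within experiment 2, where the genes with no called interaction had a median Control effect of 0.38.

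The double KO had next to no called response, with 1 gene higher (0.00548%) and 11 lower (0.0603%), though 1096 had an unadjusted p under 0.05. Of the 11 genes called lower there, 9 were in the tubulin list. Its median log2 effects over 13 genes were -1.55 in WT and -1.45 in double KO. Median log2 effects in WT and double KO were 0.40 and 0.02 for genes that failed from an equal start, 0.45 and -0.03 for those that started lower, and 0.46 and 0.03 for the already raised. The untreated differences did not follow those of ATF2 gRNA in every group. Untreated double KO had a median of -0.29 against WT for genes that started lower in ATF2 gRNA. For the already raised genes it was 0.01, with 215 of 754 called higher and 215 lower, against 23.6% and 22.1% of all genes. TNFRSF12A, for example, was -2.06 (SE 0.57) in untreated double KO against WT, and FAM129A -1.89 (SE 0.56), while ABCB1 was 3.23 (SE 0.24).

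**Figure D5:**
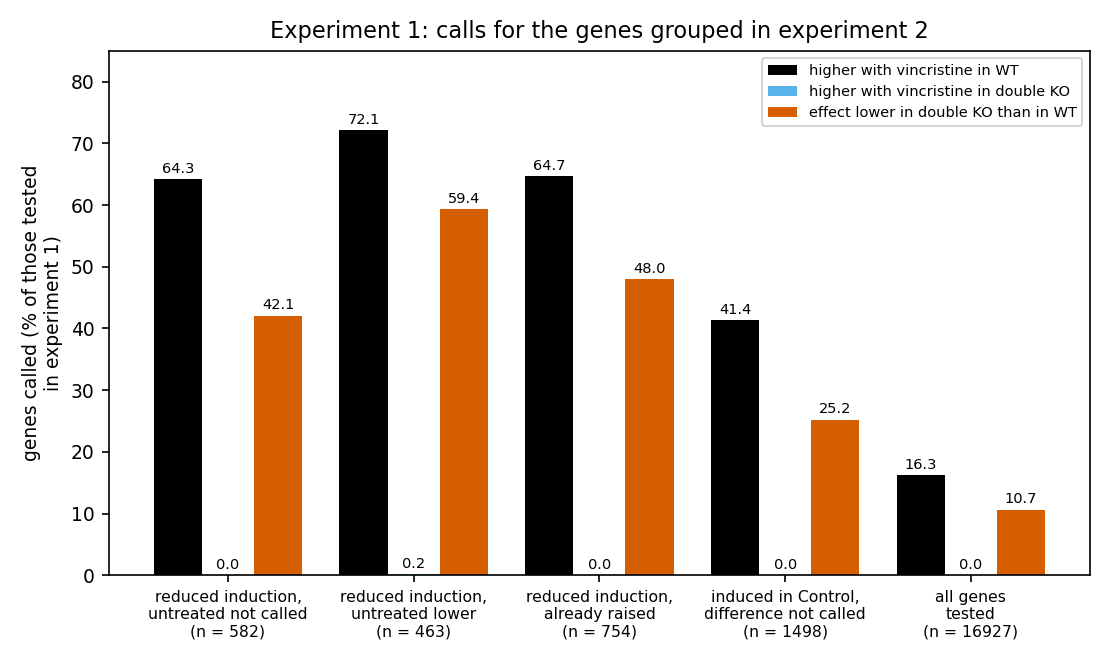
Share of genes called in experiment 1 (vertical axis, percent of those tested there) for groups of genes formed in experiment 2 (horizontal axis, with the number tested in both). Black bars are genes higher with vincristine in WT, light blue bars higher in double KO (at most 0.216%) and orange bars an effect lower in double KO than in WT; the 3 reduced-induction groups stand at 64.3% to 72.1% for the black bars, against 16.3% of all genes.

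Cells with a gRNA against JUN share the Control libraries with this comparison, so only their own values are given beside those of ATF2 gRNA. Within JUN gRNA the median log2 vincristine effects were 0.10 for genes that failed from an equal start, 0.12 for those that started lower and 0.23 for the already raised. The matching medians in ATF2 gRNA were -0.04, -0.06 and 0.03. The groups, and the genes named here, were chosen by a smaller effect in ATF2 gRNA and not in JUN gRNA. That choice alone lowers the ATF2 gRNA values, so which knockdown removes more of the response is not read from them. Untreated JUN gRNA against Control had medians of 0.03, -0.14 and 0.14, and untreated ATF2 gRNA 0.06, -0.54 and 0.54. ARID5A had effects of 1.52 in JUN gRNA and -0.29 in ATF2 gRNA, TNFRSF12A 2.54 and 0.67, and WEE1 0.54 and 0.11.

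Marker levels and library quality moved with the groups. All 12 neuronal markers had a mean of at least 1 CPM in every group, and their summed level was 15456 to 15901 CPM in untreated Control, 11405 to 12002 with vincristine, 13315 to 13613 in untreated ATF2 gRNA and 12345 to 12957 with vincristine. The 8 neural progenitor markers, most of whose sum is NES, summed to 1328 to 1421 and 2564 to 2659 CPM in Control and to 768 to 841 and 735 to 845 in ATF2 gRNA. Untreated, 4 of the 8 were called higher in ATF2 gRNA and 1 lower: NES had means of 1325 CPM in Control and 765 CPM in ATF2 gRNA, while SOX2 had 14.5 and 22.4 CPM and VIM 18.8 and 27.2 CPM. The 6 markers of peripheral-type neurons, mostly POU4F1, summed to 510.4 to 531 CPM in untreated Control, 221 to 244 with vincristine and 235 to 256 in untreated ATF2 gRNA, where 5 of 6 were called lower. Pluripotency markers summed to 9.58 to 13.5 CPM in untreated Control and 33.8 to 40.1 in untreated ATF2 gRNA, with 2 of 5 markers under 0.1 CPM in every group. LIN28A (means of 4.05 and 15.8 CPM) and DPPA4 (7.22 and 19.6 CPM) carried that rise, while POU5F1 had means of 0.396 and 0.368 CPM. In the same order astrocyte markers summed to 1.74 to 2.57 and 6.55 to 8.42 CPM, and fibroblast markers to 1.77 to 2.47 and 7.85 to 9.46 CPM. Most of the astrocyte sum was SLC1A3 (means of 1.44 and 5.30 CPM) and S100B (0.526 and 1.65 CPM), while GFAP had means under 0.1 CPM in both. Of 5 fibroblast markers tested, 3 were called higher and 1 lower: PDGFRB had means of 0.292 and 4.83 CPM and COL1A1 0.979 and 0.226 CPM, while DCN and LUM were under 0.1 CPM in both. Oligodendrocyte lineage markers summed to 12.7 to 16.9 CPM in untreated Control and 6.89 to 10.8 CPM in untreated ATF2 gRNA. Genes of inhibitory neurons were also higher in untreated ATF2 gRNA: GAD2 stood at 0.435 ± 0.207 and 8.88 ± 0.752 CPM, and SLC32A1, the vesicular GABA transporter, at 0.378 ± 0.442 and 12.7 ± 1.54 CPM. Mitochondrial genes took 5.98% to 6.31% of counts in untreated Control, 6.41% to 7.25% with vincristine, 5.07% to 5.73% in untreated ATF2 gRNA and 4.71% to 5.01% with vincristine. The part of these differences in the results was not tested, and fewer cells of a type cannot be told apart from less RNA per cell.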

How the data were processed

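RNA selected for poly(A) tails entered a stranded library kit and was read from both ends, per the labels' protocols. The deposited tables, 1 per experiment, hold raw counts per gene. Per the submitters' processing notes, the tools include cutadapt 3.4, STAR, featureCounts and Subread 2.0.1, with build GRCh38. The strand setting is not given in the sources used here. GENCODE 29 holds 56933 of the 58440 identifiers at an identical version and start, 58320 were matched to a symbol, and 0 count columns were unused.

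Each experiment was fitted by itself with edgeR 4.0.16 in R 4.3.3 (filterByExpr, TMM factors, robust quasi-likelihood, 1 mean per group, all groups together). SE is the size of the log2 fold change over the square root of F. The fit was tested on simulated data. All 36 pairs of libraries within a group differed by more than sampling noise.

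The text names ATF2, JUN, members of the pathway lists and, by interaction size, called genes that average at least 1 log2 CPM and reach a mean of 2 CPM in a group: 8 that failed from an equal start, 4 from a lower start, 8 already raised, 6 and 4 with a lessened fall, and 2 in each direction with no called Control effect. Some genes this rule names are not reported here. The members, lists and marker sets were chosen with earlier results of these data known. Alternatives were DESeq2 1.42.0, RLE factors, no low-count filter, keeping genes that average 1 CPM, the replicate block, the 4 groups alone, limma 3.58.1 voom with sample weights, a minimum size of change and leaving out each library.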

Additional observations from a re-analysis of the deposited data

Results flagged for a closer look

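The vincristine effect differed between ATF2 gRNA and Control gRNA for 4273 genes by the interaction test of edgeR with Benjamini and Hochberg adjustment. Among 144 groups of 4 or 5 libraries examined for the named genes, 16 held 1 library set apart from the rest, where chance gives about 1 in 20 groups. Control gRNA vincristine library 5 was low for AC007750.1 (14.3 CPM), SFRP4 (12.4 CPM), C11orf96 (36.4 CPM), SH2D5 (0.298 CPM) and FAM84A (16.1 CPM). In Control gRNA vincristine library 2, THBS2 was high at 66.7 CPM and CCDC85A low at 2.35 CPM, and in library 3 GADD45B was low at 7.95 CPM and RN7SL2 high at 51.4 CPM. In untreated Control gRNA library 2, F2RL2 was low at 0.741 CPM and THBS2 high at 11.9 CPM. In untreated ATF2 gRNA, RN7SL2 was high in library 4 at 19.3 CPM, FREM3 low in library 1 at 0.386 CPM, PIRT high in library 1 at 1.84 CPM and WEE1 low in library 3 at 16.3 CPM. CDH23 was high in ATF2 gRNA vincristine library 5 at 1.59 CPM. None of these libraries changed the direction of the interaction of its gene when left out.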

How the results depend on the processing

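Gene groups were recounted under 27 alternatives, 19 of which leave out 1 library. The interaction was positive for 1807 to 2233 genes and negative for 1927 to 2381 when 1 library was left out. With a minimum change (a 2-fold interaction and Control effect, and 0.5 log2 untreated), reduced induction fell to 182 genes with an equal start, 80 lower and 208 already raised, of which 76 ended below, 83 not different and 49 above treated Control. The remaining groups then held 180 (negative interaction, no induction), 36, 8 and 26 (lessened fall with an equal, lowered and higher start) and 33 genes (positive interaction, no fall). DESeq2 called 603 genes higher with vincristine in ATF2 gRNA and put 220 in the group with a positive interaction and no fall. Without the filter, 427 genes had a negative interaction and no induction, and the median interaction moved to -0.14. Genes called lower in ATF2 gRNA were 581 to 931 when 1 library was left out, the lowest without ATF2 gRNA vincristine library 4. Of 35 named genes with a called interaction, 30 kept call and direction throughout. SFRP4, TMSB4XP4, AL954650.1, AC148477.2 and RN7SL2 did not, RN7SL2 under limma voom (-3.15, adjusted p = 0.189). The cause of these changes was not tested. Replicate numbers did not pair libraries: over 27 same-numbered pairs the correlation of deviations ran from -0.07 to 0.06, and 3 of 19 libraries correlated best with their own number. With the replicate block, 2036 interactions were positive and 2147 negative. Low counts limit SFRP4 and PIRT, whose levels in treated ATF2 gRNA were under 1 CPM.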
